A study of Arabidopsis thaliana with 6 samples.

Results

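The genes described here are 10 members of the CrRLK1L family, the *Catharanthus roseus* receptor-like kinase 1-like proteins to which FERONIA (FER) belongs. They were taken by gene identifier and not by any measured value: FER (AT3G51550), THE1 (AT5G54380), HERK1 (AT3G46290), HERK2 (AT1G30570), CVY1 (AT2G39360), MDS1 (AT5G38990), MDS2 (AT5G39000), MDS3 (AT5G39020), MDS4 (AT5G39030) and AT5G59700. Of these 10 genes, 9 have a row among the 20754 genes of the deposited table, and MDS2 has none and is not analysed further for its level. Transcripts were measured by QuantSeq, a method that reads 1 fragment per polyadenylated RNA, close to its 3′ end, in rosette leaves of *Arabidopsis thaliana* from 3 wild-type (WT, Columbia-0) and 3 *fer* libraries, described in the labels as biological replicates. Here *fer* stands for *fer-4*, a T-DNA insertion allele of FER in the same background, and neither genotype received a treatment. According to the labels, plants spent 10 days on plates in constant light and 3 weeks on soil with 8 h of light at 22 °C, and were 4 weeks old at harvest, whereas the text of the study gives long days. A single allele was used, and the study, which gives a slightly greater age, describes *fer* rosettes as stunted, so genotype and plant size cannot be told apart.

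CrRLK1L proteins are receptor kinases of the plasma membrane. Outside the cell they carry malectin-like domains, which in FER bind wall pectin and take part in sensing RALF peptides, and inside the cell they carry a kinase domain. FER is known for cell growth, pollen tube reception and immunity, THE1 for sensing damage to the cell wall, HERK1 and HERK2 for cell elongation together with THE1, CVY1 for the shape of leaf epidermal cells and the MDS (MEDOS) genes for growth under metal ion stress.

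The members share an undivided coding part and differ in sequence, which matters here because reads are assigned to a gene by sequence alone. On TAIR10.1 (RefSeq annotation), each of the 10 coding sequences lies in 1 exon, with lengths from 2421 bases in MDS4 to 2688 bases in FER. The transcripts of FER, HERK1 and AT5G59700 have 2 exons, and those of the other members 1. To show how far apart the members are in a conserved part of the kinase, the stretch of 69 coding bases is given that runs from the catalytic loop to the metal-binding loop of the kinase domain, 5′ to 3′ on the coding strand, with capitals at the bases that differ from FER.
FER (chr3:19118522-19118590, minus strand): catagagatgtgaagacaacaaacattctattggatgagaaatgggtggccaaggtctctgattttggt
THE1 (chr5:22077919-22077987, minus strand): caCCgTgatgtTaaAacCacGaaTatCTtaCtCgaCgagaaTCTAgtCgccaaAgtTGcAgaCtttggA
HERK1 (chr3:17014827-17014895, plus strand): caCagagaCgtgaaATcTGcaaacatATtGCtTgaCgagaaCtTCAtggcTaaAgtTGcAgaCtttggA
AT5G59700 (chr5:24053225-24053293, minus strand): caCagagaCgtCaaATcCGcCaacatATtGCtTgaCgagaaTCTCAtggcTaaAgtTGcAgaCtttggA
HERK2 (chr1:10830856-10830924, plus strand): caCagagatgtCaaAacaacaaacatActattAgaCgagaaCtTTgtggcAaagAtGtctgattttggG
CVY1 (chr2:16438144-16438212, minus strand): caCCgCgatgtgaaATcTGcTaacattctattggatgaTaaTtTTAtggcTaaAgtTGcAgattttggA
MDS1 (chr5:15610774-15610842, plus strand): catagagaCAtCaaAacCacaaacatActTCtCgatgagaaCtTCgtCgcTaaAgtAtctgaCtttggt
MDS2 (chr5:15613789-15613857, plus strand): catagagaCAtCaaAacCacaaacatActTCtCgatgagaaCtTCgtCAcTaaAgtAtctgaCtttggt
MDS3 (chr5:15618765-15618833, plus strand): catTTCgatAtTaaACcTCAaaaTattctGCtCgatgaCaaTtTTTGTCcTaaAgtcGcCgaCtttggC
MDS4 (chr5:15621920-15621988, plus strand): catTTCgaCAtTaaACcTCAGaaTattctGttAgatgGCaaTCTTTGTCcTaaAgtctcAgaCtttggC
Within this stretch HERK2 differed from FER at 13 bases and MDS4, the most distant, at 30. Over the whole coding sequence, FER shared between 47.4% (MDS4) and 56.5% (MDS2) of aligned bases with the other 9 members. Outside the 10 genes, the family genes ANX2 (57.3%) and ANX1 (57.2%) were slightly closer to FER. The most alike pairs were MDS1 and MDS2 (85.5%), MDS3 and MDS4 (79.4%) and HERK1 and AT5G59700 (79.4%), and the median of the 45 pairs was 51.4%.

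**Figure D1:**
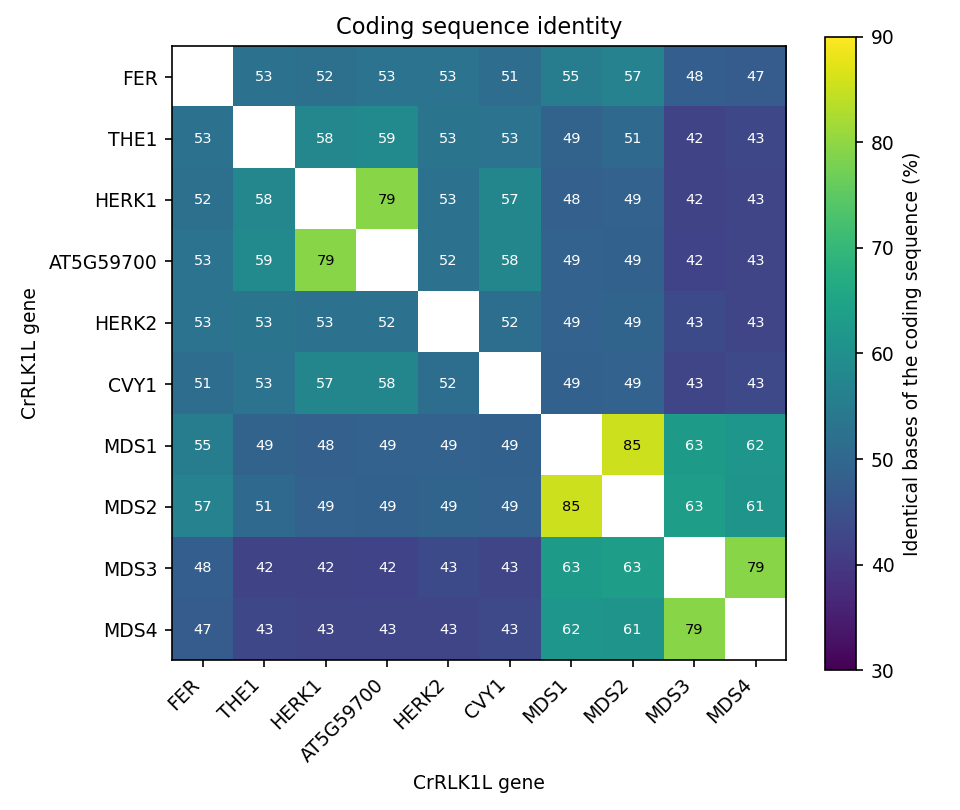
Percent of identical bases between the coding sequences of the 10 genes, for each pair, from a single alignment (colour and printed value, rounded). The pairs MDS1 and MDS2, MDS3 and MDS4, and HERK1 and AT5G59700 stand out, and FER has no partner above 56.5% among these 10 genes.

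Whether a 3′ read can be placed was examined with windows of 50 bases, the read length, in the last 500 bases of each transcript. None of the 451 windows of FER, THE1, HERK1, HERK2, CVY1, MDS3, MDS4 or AT5G59700 occurred elsewhere in the genome. The windows of FER differed from every other CrRLK1L transcript at 16 or more of the 50 bases. The nearest windows of AT5G59700 came within 2 mismatches of ERU (AT5G61350), another family member. Within 5 mismatches of another family transcript were 37 of its 451 windows. MDS1 and MDS2 were the exception, since 144 of 451 windows (31.9%) of each occurred in the other, 142 of them within the coding sequence. The longest shared run, given because reads from it fit both genes equally well, has 128 bases and ends 163 bases before the end of each coding sequence.
MDS1 (chr5:15611176-15611303, plus strand) and MDS2 (chr5:15614191-15614318, plus strand): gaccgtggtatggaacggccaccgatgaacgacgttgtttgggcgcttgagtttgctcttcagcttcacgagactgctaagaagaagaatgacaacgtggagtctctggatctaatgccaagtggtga
Beyond the stop codon no window was shared, so the value of MDS1 rests on reads from there or on reads placed by other differences, and is less certain than those of the other members. At HERK1 the last 109 bases overlap AT3G46300 on the opposite strand, which held at most 3.88 normalized reads in any library. Whether strand was used in counting is not stated.

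Values are reads normalized by the authors, and the library totals lay between 4523902 and 4526129. Since 3′ end reads are 1 per transcript, levels are compared between genes without division by transcript length. Genotypes were compared with limma on log2(value + 1), adjusted over all 20754 genes by Benjamini-Hochberg, and a gene was called at an adjusted p under 0.05. Fold changes on this scale understate the change of low genes. The leaf identity of the samples was visible in 8 of 8 mesophyll markers, which summed to between 236530 and 243160 normalized reads in WT and between 168890 and 184770 in *fer*, with 7 of the 8 called lower. Of root hair, pollen and flower markers, 6 of 11 have a row and each of these 3 lists summed to at most 11.5 normalized reads in any library. The pollen list includes ANX1, ANX2 and BUPS1, which are themselves CrRLK1L genes and are taken up again below. The senescence marker SAG12 had at most 0.39 in WT and between 25.3 and 48.2 in *fer*. In whole leaves, fewer cells of a type and less RNA per cell cannot be told apart, and the part of these differences in the values below was not tested.

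FER transcripts were nearly lost in *fer*, and FER was the only called gene of the 9. FER stood at 264.6, 265.5 and 286.4 normalized reads in the WT libraries and at 5.95, 6.63 and 10.3 in *fer*, so the genotypes were far apart and *fer* kept 2.80% of the WT level. On the log2 scale this was -5.02 ± 0.22 (SE), at an adjusted p of 7.2e-12 in limma. Of all genes tested, 14.6% were called, with 4.52% lower and 10.0% higher in *fer*. An exact permutation test on the 6 values gave p = 0.1, two-sided, the smallest that 3 against 3 libraries allow. Reads that remained in *fer* came from the 3′ end, and these data do not show whether they belong to whole transcripts.

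**Figure D2:**
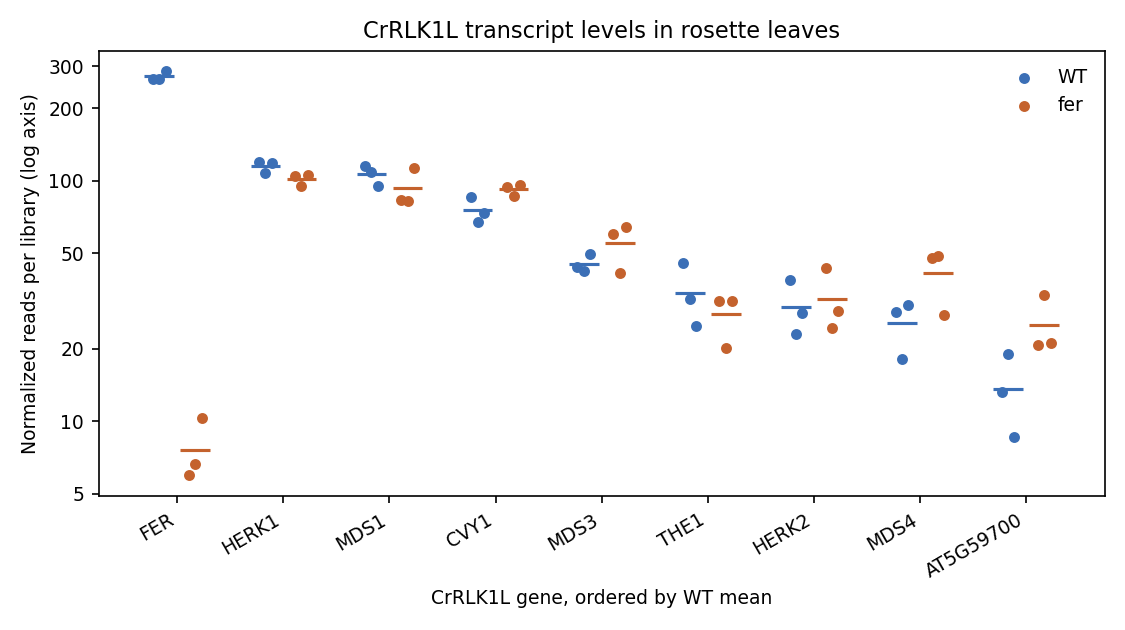
Normalized reads per library (log axis) of the 9 measured members, ordered by their WT mean. Points are libraries, 3 per genotype, and bars are means. FER drops from the highest of the 9 in WT, at a mean of 272.2, to the lowest in *fer*, at 7.62, while the means of the other 8 differ between genotypes by less than a doubling.

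None of the 8 relatives of FER was called in limma, against 14.6% of all genes, and 2 of the 8 (MDS4 and AT5G59700) had an unadjusted p under 0.05, against 27.1% of all genes. Limma without its mean-variance trend called 5.44% of all genes and again none of the 8. Their median log2 fold change was 0.18, beside 0.10 for all genes. The ranges of the genotypes did not overlap for HERK1, which was lower in *fer*, and for CVY1 and AT5G59700, which were higher. With FER these are 4 of 9 members, against 31.3% of all genes. For THE1, HERK1, HERK2, CVY1, MDS1 and MDS3 the 95% intervals of the log2 fold change all lay between -0.87 and 0.71. A doubling or a fall to 50% of the WT level lay outside each of them. Only MDS4 and AT5G59700 had intervals that reached above 1. These intervals are from limma with its trend on the authors' normalized values of all 6 libraries, and those of other fits are not given. THE1 moved to -0.44 ± 0.28 (SE) under quantile normalization and to -0.47 ± 0.31 without WT column 3.

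**Figure D3:**
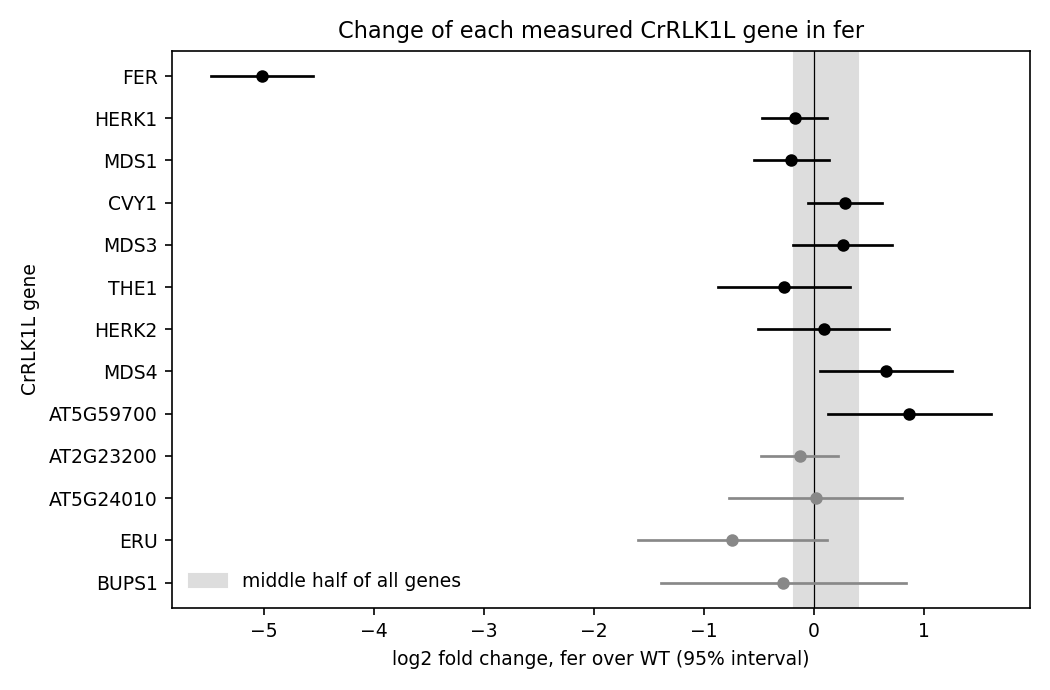
Log2 fold change of *fer* over WT with its 95% interval in limma, for the 9 measured members (black) and 4 other measured CrRLK1L genes (grey). The shaded band is the interquartile range of all 20754 genes, from -0.18 to 0.40. FER lies far outside it, at -5.02. Of the others, AT5G59700 (0.87), MDS4 (0.66) and ERU (-0.74) lie furthest outside it, with intervals that reach into it.

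HERK1, which acts with THE1 in cell elongation, had the highest mean of the relatives in both genotypes, although MDS1, whose value is less certain, was above it in WT column 2 and *fer* column 3. Its WT values were 119.9, 107.6 and 118.5 normalized reads, and its *fer* values 105.1, 95.2 and 106.1. All 3 *fer* libraries lay below all 3 WT libraries, by a small margin. Limma gave a log2 fold change of -0.17 ± 0.14, an adjusted p of 0.47 and a 95% interval from -0.47 to 0.12. THE1, the sensor of cell wall damage, held 45.4, 32.2 and 24.9 normalized reads in WT and 31.7, 20.2 and 31.6 in *fer*. Its libraries scattered widely in both genotypes, with an SD of 30.4% of the mean in WT. The log2 fold change of THE1 was -0.27 ± 0.29, with an adjusted p of 0.59, and ranged from -0.05 without WT column 1 and -0.07 without *fer* column 2 to -0.47 without WT column 3. HERK2, the other gene of this elongation group, held 38.6, 23.1 and 28.1 normalized reads in WT and 43.6, 24.4 and 28.7 in *fer*. The ranges of HERK2 overlapped nearly in full, and its log2 fold change of 0.09 ± 0.28 turned to -0.0090 under median of ratios scaling.

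CVY1, known for the shaping of leaf epidermal cells, varied little among the *fer* libraries. Its WT values were 85.9, 67.4 and 73.8 normalized reads, and its *fer* values 94.1, 86.7 and 95.7. The lowest *fer* library was just above the highest WT library. Limma gave a log2 fold change of 0.29 ± 0.16, an adjusted p of 0.27 and a 95% interval from -0.05 to 0.62. Nothing is annotated for AT5G59700 in the sources used here beyond its place in the family. AT5G59700 was the lowest member in WT, at 13.2, 19.1 and 8.56 normalized reads, and held 20.8, 33.6 and 21.1 in *fer*. Its genotypes did not overlap, but the highest WT library (19.1) and the lowest *fer* library (20.8) lay closer together than the libraries within either genotype were spread. The log2 fold change of 0.87 ± 0.35 was the largest among the 8 relatives, and its 95% interval ran from 0.13 to 1.61. The adjusted p was 0.11 in limma, and between 0.082 and 0.35 over the alternatives run.

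HERK1 and AT5G59700 are one of the most alike pairs by coding sequence, and their fold changes, neither of them called, had opposite signs. The log2 ratio of AT5G59700 over HERK1 within a library, a comparison chosen after the values were seen, was -3.09, -2.43 and -3.64 in WT and -2.29, -1.48 and -2.28 in *fer*. All 3 *fer* ratios were above all 3 WT ratios, by 1.04 on average. Since neither gene's genotypes overlapped and the signs were opposite, this separation follows from the values of the single genes. An exact permutation test on the ratios gave p = 0.1, the smallest that 3 against 3 libraries allow, and so adds nothing to them.

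The MDS genes lie in tandem on chromosome 5, from 15608685 to 15622620 on the plus strand of TAIR10.1, with 2 other annotated genes between them. MDS1 held 115.2, 108.6 and 95.3 normalized reads in WT and 83.3, 82.5 and 112.9 in *fer*. A *fer* library at the WT level kept the ranges of MDS1 overlapping, and limma gave -0.20 ± 0.16 on the log2 scale, at an adjusted p of 0.46. MDS3 held 43.7, 42.3 and 49.6 normalized reads in WT and 60.1, 41.3 and 64.1 in *fer*. Its *fer* libraries spread more widely than its WT libraries, and limma gave 0.26 ± 0.22, at an adjusted p of 0.48. MDS4 held 28.4, 18.1 and 30.4 normalized reads in WT and 47.9, 48.5 and 27.7 in *fer*. The library *fer* column 3 lay within the WT range and the other two well above it. The log2 fold change of MDS4 was 0.66 ± 0.29, with an adjusted p of 0.14 and a 95% interval from 0.06 to 1.26, and it moved with the libraries used, from 0.44 (adjusted p 0.42) without WT column 2 to 0.92 (adjusted p 0.073) without *fer* column 3. Quantile normalization gave MDS4 a value of 0.46, at an adjusted p of 0.33. The log2 ratio of MDS4 over MDS3 ranged from -1.18 to -0.60 in WT and from -1.18 to 0.23 in *fer*, so it overlapped, with p = 0.5 in an exact permutation test. The 3 measured genes of the cluster summed, as mean ± SD of 3 libraries, to 177.2 ± 9.31 in WT and 189.4 ± 16.3 in *fer*.

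The make-up of the family differed between the genotypes mainly by FER. FER held 35.0%, 38.8% and 40.0% of the summed reads of the 9 members in the WT libraries and 1.21%, 1.51% and 2.07% in the *fer* libraries. The sum of the 9 members averaged 718.2 ± 35.6 normalized reads (SD, n = 3) for WT and 476.5 ± 32.6 for *fer*, or 66.3% of WT. Without FER, the other 8 summed to 446.0 ± 38.8 in WT and 468.9 ± 31.7 in *fer*. The libraries of the genotypes overlapped in that sum, from 418.5 to 490.4 in WT and from 432.3 to 487.7 in *fer*. Among the 8 relatives alone, the mean share of HERK1 was 25.9% in WT and 21.8% in *fer*, and that of CVY1 16.9% and 19.7%, with no overlap between the libraries of the genotypes. The shares of MDS1 (23.9% and 19.8%), MDS4 (5.74% and 8.91%) and AT5G59700 (3.09% and 5.45%) differed by similar amounts, but their libraries overlapped. THE1 (7.58% and 5.89%), HERK2 (6.65% and 6.82%) and MDS3 (10.2% and 11.7%) overlapped as well.

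**Figure D4:**
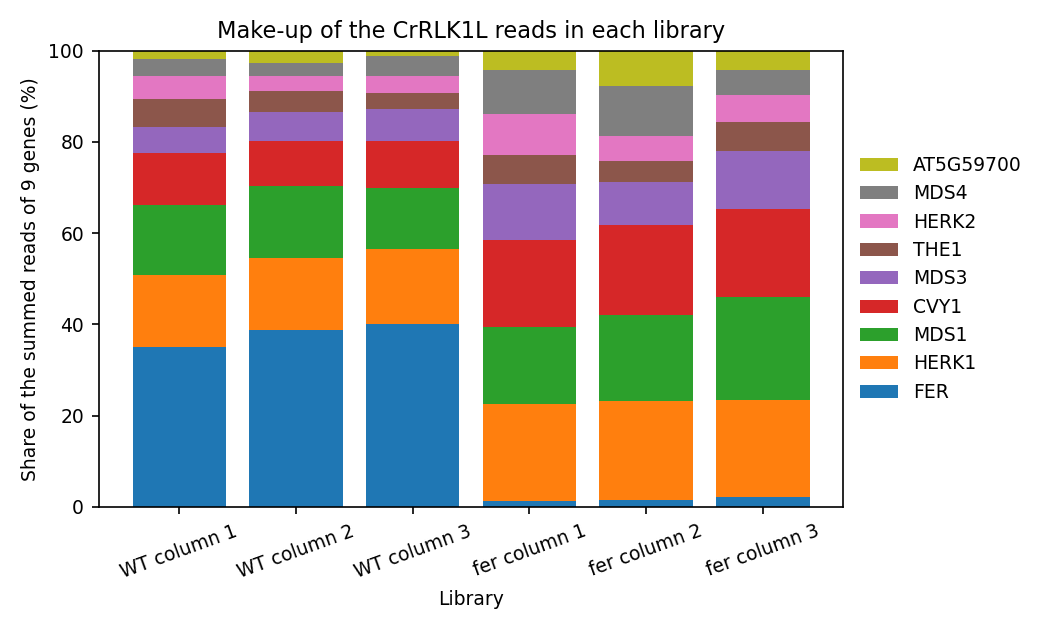
Share of each of the 9 measured members in their summed normalized reads, per library (stacked bars that sum to 100%). FER takes between 35.0% and 40.0% of the WT bars and between 1.21% and 2.07% of the *fer* bars, and the other 8 genes fill the rest.

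With FER set aside, HERK1, MDS1, CVY1 and MDS3 led in this order in both genotypes, and AT5G59700 was last. In WT it ran FER, HERK1, MDS1, CVY1, MDS3, THE1, HERK2, MDS4 and AT5G59700. The ranges of neighbours did not overlap between FER and HERK1, MDS1 and CVY1, or CVY1 and MDS3, and overlapped for the remaining neighbours. In *fer* it ran HERK1, MDS1, CVY1, MDS3, MDS4, HERK2, THE1, AT5G59700 and FER, with no overlap between CVY1 and MDS3 or between AT5G59700 and FER. Relative to all genes, the 8 relatives lay between the 33.1 percentile (AT5G59700) and the 72.1 percentile (HERK1) of the mean over the 6 libraries. Libraries also differed across members. WT column 1 was the highest WT library for 5 of the 8 relatives (THE1, HERK1, HERK2, CVY1 and MDS1). Among the *fer* libraries, column 2 was the lowest for 6 of the 8, and the highest for the other 2, MDS4 and AT5G59700.

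The genes whose pattern over the 6 libraries was most like that of FER were not family members. By the distance between log2(value + 1) profiles centred on WT, among 18167 genes with a mean of at least 5 normalized reads in the higher genotype, the nearest was DGAT2 at 0.47, followed by AT3G51530 at 3.02 and ACA2 at 3.89. DGAT2 (AT3G51520), an acyltransferase gene, stood at 83.9, 115.6 and 97.1 normalized reads in WT and at 1.46, 1.28 and 2.68 in *fer*. AT3G51530 held 16.0, 16.1 and 16.0 normalized reads in WT and 1.26, 0.08 and 0.87 in *fer*. By their locus numbers DGAT2 and AT3G51530 lie close to FER on chromosome 3. The genotypes thus also differed at DGAT2 and AT3G51530, which were picked for their likeness to FER and so do not stand for all its neighbours. The part of these genes in the other values was not tested.

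The family has 7 further genes, of which ANX1, ANX2 and BUPS2, known for pollen tube growth, have no row and are not analysed here. None of the 4 that have a row was called in limma or had an unadjusted p under 0.05, against 14.6% and 27.1% of all genes. BUPS1, also known from pollen tubes, was low, between 4.03 and 5.42 normalized reads in WT and between 1.87 and 7.33 in *fer*. ERU, known for root hair growth, ranged from 11.4 to 20.1 in WT and from 5.64 to 12.7 in *fer*, and limma gave -0.74 ± 0.41 on the log2 scale, at an adjusted p of 0.26. AT5G24010 and AT2G23200 had log2 fold changes of 0.02 and -0.13. AT2G23200 averaged 80.2 normalized reads in WT against 73.1 in *fer*, and 665 of its bases overlap a neighbouring gene on the opposite strand.

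Among listed genes known to act with FER, 3 RALF ligand genes were called lower and 4 effector genes higher, 7 genes in all. The lists were chosen by name and hold 13 RALF, 7 LRX and 15 effector genes, of which 9, 4 and 14 have a row. Genes outside these lists were not counted. RALF peptides are ligands of the family. Of the 9 listed RALF genes with a row, 3 were called lower and 0 higher, against 4.52% and 10.0% of all genes. Their median log2 fold change was -0.41. RALF34, a ligand of THE1, fell from between 1086 and 1224 to between 838.4 and 897.4 normalized reads (log2 fold change -0.41, adjusted p = 0.0016 in limma). RALF23, a ligand of FER, fell from between 189.4 and 216.3 to between 127.0 and 153.9 (-0.48, adjusted p = 0.013 in limma), and RALF24 from between 89.5 and 103.2 to between 46.7 and 75.6 (-0.63, adjusted p = 0.029 in limma). None of the 3 LRE and LLG co-receptor genes in the table was called in limma, and 0 had an unadjusted p under 0.05. None of the 4 LRX extensin genes was called, with 1 under 0.05, but 1 was called after median of ratios scaling. Of all genes, 14.6% were called and 27.1% had an unadjusted p under 0.05 in limma. LLG1, a co-receptor of FER, held between 264.6 and 310.7 normalized reads in WT and between 279.1 and 291.6 in *fer*. Of 14 effector genes, 4 were called higher and 0 lower, against 10.0% and 4.52% of all genes, and 2 were called higher after median of ratios scaling. MYC2, a jasmonate transcription factor that FER phosphorylates, rose by 0.80 on the log2 scale (adjusted p = 0.00032 in limma). The study also reports higher MYC2 transcripts in *fer* by RT-qPCR, which was known before the list was chosen. The proton pump gene AHA1 rose by 0.50 on the log2 scale (adjusted p = 0.00046 in limma). Limma without the trend called none of the genes of these 4 lists. The difference in called shares between the relatives of FER and these lists was not tested.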

How the data were processed

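Rosette leaf RNA of 3 WT and 3 *fer* samples was sequenced by the authors with QuantSeq (50-bp single-end reads, 2 runs merged), aligned to TAIR10 with STAR, counted with HTSeq (intersection-nonempty) and normalized with edgeR's TMM. The deposited values are a signal: normalized reads per gene, brought by the authors to a common library size and filtered for low genes. They are not whole numbers, so the depth of each library is unknown (the study states only an average), count tests were not used and no counting interval is given. A further deposited column, the authors' log2 fold change, was not used. Columns carry the genotype but no replicate number, so column 1 to 3 pair nothing across genotypes.

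log2(value + 1) was tested with limma 3.58.1 in R 4.3.3 (eBayes with trend, two-sided, Benjamini-Hochberg over 20754 genes), checked on simulated data. Coding sequences from the TAIR10.1 genome were aligned with MAFFT 7.526. The table holds no coordinates. Named genes are the members, the other family genes, up to 3 called genes of each pathway list and the 3 nearest FER in pattern. A gene that this rule names among the effectors is not reported here. Members, lists and tests were chosen with earlier results of these data known. Alternatives were another pseudocount (0.1), a filter (mean of at least 5), 2 other scalings, limma without the trend, a threshold of 0.01 and leaving out each library.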

Additional observations from a re-analysis of the deposited data

How the results depend on the processing

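Every alternative kept FER as the only called member of the 9, at a log2 fold change from -5.18 to -5.02 (from -5.23 to -4.88 without 1 library) and an adjusted p in limma of at most 0.00078, reached without the trend. Directions of the other 8 were kept, except for HERK2, at -0.0090 under median of ratios scaling, -0.092 under quantile normalization and from -0.14 to 0.28 across the fits without 1 library. Without 1 library, MDS1 ranged from -0.35 to -0.13 and MDS3 from 0.14 to 0.45, all with adjusted p over 0.05. These scalings shift the median of all genes by -0.10 and -0.14. Of all genes, 2083 were called higher and 938 lower. Median of ratios scaling called 1510 higher and 1459 lower, and quantile normalization 1353 higher and 1450 lower. The excess of higher over lower genes was thus small or absent under these scalings. Limma without the trend called 908 higher and 222 lower, and a threshold of 0.01 left 1190 higher and 492 lower. Leaving out 1 library gave from 1287 to 1822 higher and from 537 to 821 lower, with 1287 and 620 without *fer* column 3 and 537 lower without WT column 2. Of the pathway genes, 4 were called higher and 3 lower. There were 2 higher and 4 lower under either scaling, 0 higher and 0 lower without the trend, and 2 higher and 1 lower at 0.01. Leaving out 1 library gave from 2 to 3 higher and from 1 to 3 lower, with 1 lower without WT column 2 or *fer* column 2. The cause was not tested. No paired analysis was possible because no column name gives a replicate number. Tests for counts were not run, because the values are not whole reads. With 3 libraries per genotype, the intervals of low genes such as AT5G59700 and MDS4 stay wide.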
